A study of Mus musculus with 36 samples.

Results

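The 10 genes described here make, lengthen and desaturate fatty acids or switch that programme on: Srebf1, Acly, Acaca, Fasn, Elovl5, Elovl6, Scd1, Scd2, Fads1 and Fads2. They were picked from a list of gene symbols, by a rule that uses no measured value, although the list was drawn up with earlier results of these data known. They are 10 of the 19879 genes in the deposited tables. RNA sequencing was carried out on BV-2 cells, an immortalized line of mouse microglia, with 36 libraries in 12 groups of 3. The cells had received dimethyl sulfoxide (DMSO) or ethanol (EtOH) as vehicle, bacterial lipopolysaccharide (LPS) at 600 ng/mL, or the same LPS together with 30 µM dimethyl fumarate (DMF), 30 µM monomethyl fumarate (MMF) or 6 µM cannabidiol (CBD), for 4 h or 24 h. DMF is the dimethyl ester of fumaric acid and MMF its monoester; CBD is a phytocannabinoid. Every group, controls included, was wild-type BV-2, and serum had been lowered to 0.1% just before the drugs were added. Vehicles were at 0.2%, and the labels do not say which vehicle the LPS-only cells received. The 3 libraries of a group came from 3 independent experiments with 1 cell line, so their spread is that between cultures of this line and not between animals.

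Fatty acids are built in the cytosol from acetyl-CoA. ATP citrate lyase (Acly) cuts citrate exported from mitochondria to give that acetyl-CoA, acetyl-CoA carboxylase alpha (Acaca) turns it into malonyl-CoA, and fatty acid synthase (Fasn) joins malonyl units into palmitate. Elovl6 lengthens palmitate to stearate and Elovl5 lengthens polyunsaturated chains. The stearoyl-CoA desaturases Scd1 and Scd2 put the first double bond into saturated chains, whereas Fads2 and Fads1, the delta-6 and delta-5 desaturases, act on the essential polyunsaturated ones. Srebf1 encodes sterol regulatory element-binding protein 1, a membrane-held transcription factor that is released by cleavage and switches on most of these enzymes; its own transcription is driven by the liver X receptors (LXR). In macrophages and microglia the pathway feeds membrane and lipid mediator synthesis.

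On the GRCm39 genome of the deposited tables, 4 of the genes lie on chromosome 11: Srebf1 (ENSMUSG00000020538, chr11:60089915-60113407), Acly (ENSMUSG00000020917, chr11:100367179-100418826) and Fasn (ENSMUSG00000025153, chr11:120696672-120715373) on the minus strand, and Acaca (ENSMUSG00000020532, chr11:84020498-84292477) on the plus strand. The 4 desaturases lie on chromosome 19, with Scd1 (ENSMUSG00000037071, chr19:44382894-44396318) and Fads2 (ENSMUSG00000024665, chr19:10040129-10079110) on the minus strand and Scd2 (ENSMUSG00000025203, chr19:44282113-44295303) and Fads1 (ENSMUSG00000010663, chr19:10160252-10174241) on the plus strand. Elovl6 (ENSMUSG00000041220, chr3:129326004-129432144) and Elovl5 (ENSMUSG00000032349, chr9:77824646-77891801) are on the plus strands of chromosomes 3 and 9. All 10 are protein-coding. The counting of strands is not given in the sources used here, so reads at the exons that Srebf1 shares with Rai1, Acly with Odad4 and Acaca with Tada2a, each on the opposite strand, cannot be told apart. Scd1, Scd2, Scd3 and Scd4 are close paralogs, and the counts do not separate the isoforms of Srebf1.

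RefSeq promoter windows of 300 bases, from 250 before to 50 after a start site on build GRCm38.p6, were found for 7 of the 10 genes (9 windows in all, 3 of them of Srebf1). Those of Acly and Fasn are shown because these enzymes, which act in the same route, changed unequally with DMF, and that of Elovl5 because its level tracked that of Acly over the 12 groups. They lie at chr11:100527951-100528250 on the minus strand, chr11:120824498-120824797 on the minus strand and chr9:77917115-77917414 on the plus strand. Capitals mark CCAAT or its reverse complement ATTGG, the letters bound by NF-Y, a factor that works beside SREBP at many lipid gene promoters.
Acly: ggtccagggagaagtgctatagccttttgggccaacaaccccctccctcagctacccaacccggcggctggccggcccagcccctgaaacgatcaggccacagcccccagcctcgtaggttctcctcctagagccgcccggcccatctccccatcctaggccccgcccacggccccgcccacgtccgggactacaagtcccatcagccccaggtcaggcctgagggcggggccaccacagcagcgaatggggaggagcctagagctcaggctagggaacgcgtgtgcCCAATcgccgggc
Fasn: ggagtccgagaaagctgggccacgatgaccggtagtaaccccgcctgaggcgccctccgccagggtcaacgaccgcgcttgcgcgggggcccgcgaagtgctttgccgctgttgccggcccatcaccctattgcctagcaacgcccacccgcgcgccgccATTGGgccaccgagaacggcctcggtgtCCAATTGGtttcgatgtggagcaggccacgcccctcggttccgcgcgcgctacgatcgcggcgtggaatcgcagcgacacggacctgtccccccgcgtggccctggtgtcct
Elovl5: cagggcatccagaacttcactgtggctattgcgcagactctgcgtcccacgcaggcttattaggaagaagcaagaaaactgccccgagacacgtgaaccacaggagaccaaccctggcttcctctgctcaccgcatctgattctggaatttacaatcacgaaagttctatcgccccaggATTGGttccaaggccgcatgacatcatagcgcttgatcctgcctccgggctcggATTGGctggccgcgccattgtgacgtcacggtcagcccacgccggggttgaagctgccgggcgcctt
Searched on both strands, the Fasn window held 3 matches, of which a CCAAT and an ATTGG overlap by 2 bases, the Elovl5 window 2 and the Acly window 1. A match of these 5 letters stood in 37.4% of all 32851 promoter windows of that length. GGGCGG, the letters bound by Sp1, occurred 4 times in the Acly window and in neither of the other two shown, against 35.7% of all windows with a match. CACGTG, an E-box, stood in the Elovl5 window and in 7.15% of all windows. TCACNCCAC, the letters of a sterol regulatory element, stood in none of the 9 windows and in 1.24% of all windows. A match is a description of the sequence only.

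The libraries held 14110424 to 26676607 counted reads, and every member was read at least 1195 times in each of them. The gene tables give counts divided by a size factor that was set separately for each pair of groups. For levels across all 12 groups, the whole reads behind these values were recovered and scaled together over the 36 libraries. Of 10 microglia and macrophage markers, 9 reached 10 normalized counts in all 36 libraries and Cx3cr1 in 35. Among markers of neurons, astrocytes, oligodendrocytes and fibroblasts, Map2 and Mbp did so in all 36, and Snap25, Syt1 and Aqp4 were not listed. Mitochondrial genes took 1.25% to 2.32% of the reads, and the 3 libraries of LPS with CBD at 24 h were the lowest, at 1.254% to 1.396%, with 1 library of LPS at 24 h next at 1.44%. In bulk RNA, fewer cells with a transcript and less of it per cell cannot be told apart.

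Per kilobase of exon, Scd2 was the highest of the 10 genes in every group, and Acaca the lowest. In DMSO cells at 4 h, Scd2 stood at 5712 ± 420.4 normalized counts per kilobase (SD, n = 3, as throughout). Fasn followed at 1795 ± 242 per kilobase, while Acaca, the enzyme one step before it, was at 110.5 ± 8.9. The regulator Srebf1 was at 739.9 ± 19.1 per kilobase. Scd1, the other desaturase of saturated chains, reached 919 ± 76. Exon length here is the union of all annotated exons, such as 14.575 kb for Acly, 18.396 kb for Acaca and 11.706 kb for Fasn. The counts do not tell which transcripts were in use, so levels per kilobase are approximate between genes.

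**Figure D1:**
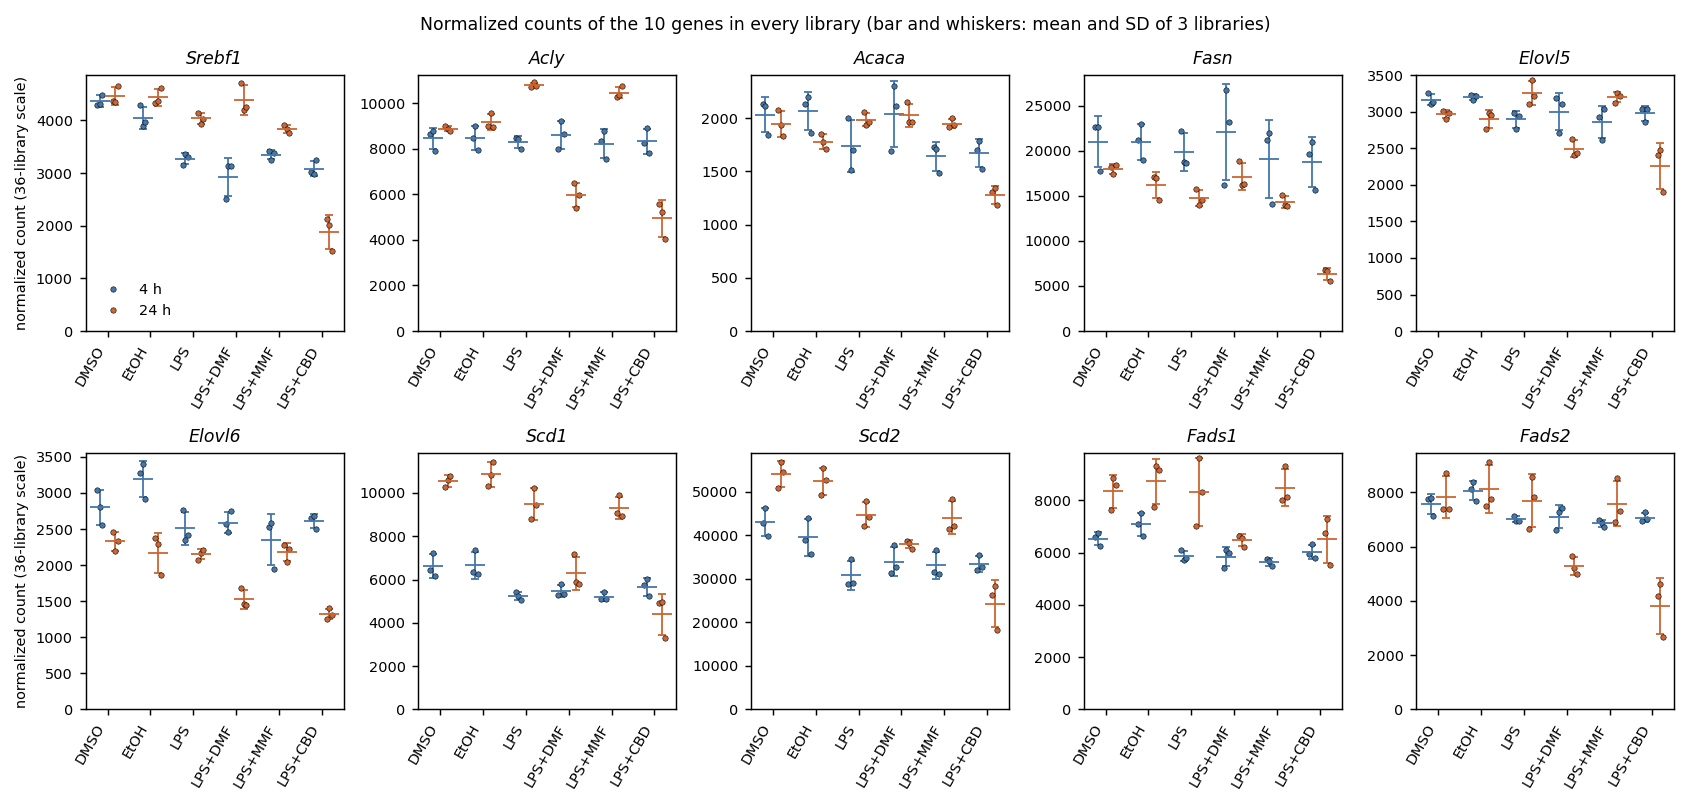
Normalized counts of each gene (vertical axes, from 0, on the scale of all 36 libraries) in the 6 treatments at 4 h and 24 h; points are libraries, bars and whiskers the mean and SD of 3. LPS with CBD at 24 h is the lowest group for every gene but Fads1.

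Over the 12 groups, the mean of 9 of the 10 genes was lowest in LPS with CBD at 24 h, and that of Fads1 in LPS with MMF at 4 h. Fasn had the widest span, 3.49-fold between LPS with DMF at 4 h and LPS with CBD at 24 h, and Elovl5 the narrowest, at 1.44-fold. Few neighbours in the order of groups were apart beyond their libraries. Of the 11 neighbouring pairs, 0 were free of overlap for Elovl5 and Fads1, 1 for Acaca and Fasn, 2 for Acly, Elovl6, Scd2 and Fads2, and 3 for Srebf1 and Scd1. The step that most often stood clear was the last one, to LPS with CBD at 24 h, which did not overlap the group above it for Srebf1, Acaca, Fasn, Elovl6, Scd1, Scd2 and Fads2.

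Some of these genes passed as lower with LPS at 4 h. Srebf1, the regulator, and Scd1 were lower after 4 h of LPS than in either vehicle, and Scd2 was lower than in DMSO. Srebf1 was at 3158, 3358 and 3299 normalized counts in the 3 LPS libraries, 4282, 4312 and 4490.5 in DMSO and 4286, 3884 and 3971 in EtOH. No LPS library reached any vehicle library. The log2 fold change of Srebf1 was -0.42 ± 0.06 (SE) against DMSO (adjusted p = 0.00339) and -0.30 ± 0.06 against EtOH (adjusted p = 0.0176). Fold changes are on the scale of log2(normalized count + 1), and p-values are from limma with Benjamini-Hochberg adjustment over all genes tested; a gene was called at an adjusted p under 0.05.

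Scd1 stood at 5445, 5235 and 5042 with LPS at 4 h, below 6456, 7234 and 6179 in DMSO and 6347, 7351 and 6253 in EtOH. The change was -0.34 ± 0.08 against DMSO (adjusted p = 0.0235) and -0.34 ± 0.08 against EtOH (adjusted p = 0.0295). Scd2 was 1.41-fold lower than in DMSO (adjusted p = 0.0189); against EtOH its change of -0.36 missed the threshold (adjusted p = 0.0814) but passed with DESeq2 (0.0136) and without LPS replicate 2 (0.0198). Fads2 too passed against EtOH with DESeq2 alone (adjusted p = 0.0382). Elovl6 and Fads1 passed only against EtOH, at -0.35 ± 0.09 and -0.27 ± 0.07 (adjusted p = 0.0365 and 0.0392). Whether these genes differed between the vehicles was tested directly, and they did not pass, except Elovl6 with the replicate block (adjusted p = 0.0132): DMSO minus EtOH at 4 h was -0.18 for Elovl6 (95% interval -0.37 to -0.00) and -0.11 for Fads1 (-0.25 to 0.04). In all, 3 of 10 members were called lower against DMSO and 4 against EtOH, where 6.38% of 11424 and 4.48% of 11491 genes tested were called lower. The same 3 LPS libraries serve both comparisons. LPS and vehicle libraries carry different replicate numbers, so a difference between experiments, if there was one, cannot be told apart from that of LPS. All 10 estimates were below 0 in both, with medians of -0.16 and -0.26, beside -0.00 and 0.002 over all genes tested. In limma, 4 members had an unadjusted p under 0.05 against DMSO and 8 against EtOH, beside 3462 and 2857 of all genes tested. Of the oligodendrocyte markers, the summed level of Mbp, Mog and Mag was lower with LPS as well, at 1048 to 1070.0 normalized counts per library beside 1272 to 1359 in DMSO and 1302 to 1442 in EtOH, and its part in the result was not tested.

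At 24 h the direction was mixed. Acly was higher with LPS, at 10692, 10912 and 10732, than in DMSO, at 9009, 8853 and 8788, and in EtOH, at 8986, 9580.5 and 8947, with no overlap. Its change was 0.29 ± 0.07 against DMSO (adjusted p = 0.00767) and 0.24 ± 0.07 against EtOH (adjusted p = 0.0335). Fasn was lower than in DMSO, by 1.21-fold (adjusted p = 0.0224), while its change against EtOH was -0.12 (95% interval -0.32 to 0.07, adjusted p = 0.372). Srebf1, lower at 4 h, was at -0.13 against DMSO and -0.13 against EtOH at 24 h and passed in neither. Thus 2 members were called against DMSO, 1 in each direction, where 22.7% of 11574 genes were called in either direction. Scd2, not called (adjusted p = 0.0647), passed against DMSO with edgeR (0.0363) and DESeq2 (0.0132). Against EtOH, 1 was called higher, where 10.8% of 11775 genes were. The neuron markers, nearly all of it Map2, summed to 231 to 339 with LPS, 119 to 138 in DMSO and 167 to 195 in EtOH, and their part was not tested.

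**Figure D2:**
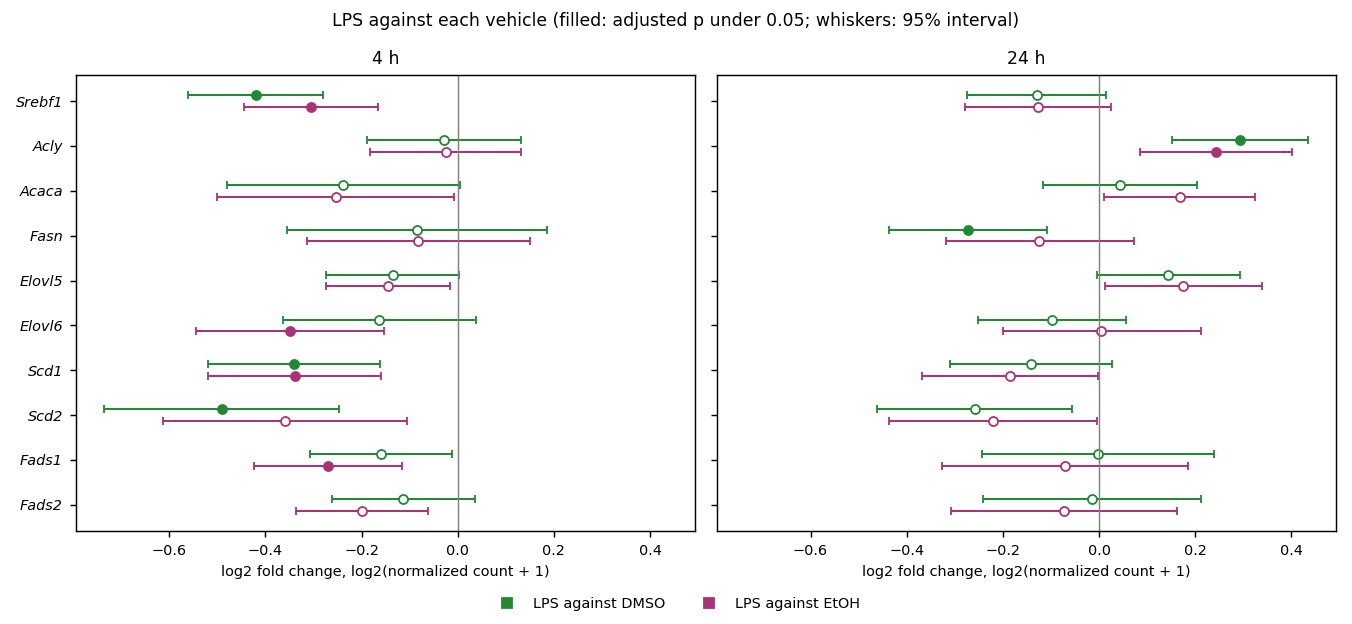
Log2 fold change of LPS over each vehicle (horizontal axis, on log2(normalized count + 1)) at 4 h and 24 h for the 10 genes; whiskers are 95% intervals and filled points had an adjusted p under 0.05. At 4 h all points lie left of 0; at 24 h Acly lies to the right against both vehicles.

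Many of these small LPS calls lay near the threshold and were lost when a single library was left out. Srebf1 at 4 h and Acly at 24 h, both against DMSO, held under every alternative. Without EtOH replicate 4 or 6, or LPS replicate 3, Srebf1 at 4 h against EtOH reached adjusted p = 0.0826. Scd1 at 4 h was lost against DMSO without DMSO replicate 5 or 6 or LPS replicate 3 (up to 0.106) and against EtOH without any EtOH replicate or LPS replicate 3 (up to 0.13). Among these omissions, Scd2 against DMSO kept its call only without LPS replicate 2 (otherwise up to 0.0977), and Elovl6 against EtOH only without LPS replicate 1 (up to 0.145). Fads1 at 4 h and Acly at 24 h, both against EtOH, were lost without any 1 of the 6 libraries (up to 0.155 and 0.108), and Fasn at 24 h without any DMSO replicate or LPS replicate 3 (up to 0.0996). Every estimate kept its sign.

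DMF at 24 h lowered Acly, both elongases and the desaturases Scd1, Fads1 and Fads2, whereas Fasn, Acaca and Srebf1 did not pass the test and Scd2 lay on its threshold. Acly stood at 6489, 5412 and 5985 normalized counts with LPS and DMF, below the 10692, 10912 and 10732 of LPS alone. It was 1.81-fold lower (log2 fold change -0.86 ± 0.08, adjusted p = 9.64e-05), the largest change of a member under DMF. Fasn, which uses the carbon that Acly supplies, was at 18852, 16241 and 16288 with DMF and 15752, 14031 and 14509.7 without it. All 3 DMF libraries were above the 3 of LPS, but the change of 0.21 ± 0.09 missed the threshold (95% interval 0.02 to 0.40, adjusted p = 0.0992); with the replicate number as a block it passed (adjusted p = 0.0119).

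Scd1 fell from 8794, 10239.8 and 9460.2 to 7180.5, 5894 and 5775, with the groups apart, a change of -0.60 ± 0.10 (adjusted p = 0.00198). Fads2, which starts the desaturation of essential fatty acids, was at 5659, 5214 and 5006 against 6666, 8586 and 7844, also without overlap. Its change was -0.54 ± 0.09 (adjusted p = 0.003). Elovl6 (1.42-fold lower, adjusted p = 0.00195) and Elovl5 (1.31-fold lower, adjusted p = 0.00366) passed as well. Fads1, at -0.35 (adjusted p = 0.0281), lost its call without LPS replicate 3 (adjusted p = 0.0926), DMF replicate 2 (0.0677) or DMF replicate 3 (0.116). Scd2, at -0.24 (adjusted p = 0.0507 by limma), passed with edgeR (0.0313), DESeq2 (0.0116) and the replicate block (0.0165) and without LPS replicate 1 (0.0329). Srebf1 (0.12, 95% interval -0.04 to 0.28) and Acaca (0.03, -0.13 to 0.19) did not pass. In the fit without the replicate block, 6 of 10 members were called lower and 0 higher, where 13.2% of 11670 genes tested were called lower. With the block, Scd2 was called lower and Fasn higher besides, and 4566 genes were called in either direction in place of 2926. The summed level of the 4 neuron markers, of which Rbfox3 stayed near 0 and Map2 made up nearly all, was 66 to 141 with DMF beside 231 to 339 with LPS; its part in the result was not tested.

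At 4 h of DMF, 0 of 10 members were called by limma, edgeR or DESeq2, and 0 had an unadjusted p under 0.05, although 11.1% of 11371 genes tested were called. The 95% intervals of the 10 genes ran from -0.41 (Srebf1) to 0.54 (Acaca). Fasn was the least precise, at 16249, 26715 and 23142 in the 3 libraries. The effect of DMF differed between the times for 5 members by an interaction term, Acly, Elovl5, Elovl6, Scd1 and Fads2, all in the lower direction, where 8.15% of 11909 genes had a lower interaction called.

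With MMF, at the same 30 µM, no member passed the test: 0 of 10 members were called at 4 h and 0 at 24 h, by limma, edgeR, DESeq2 or with the replicate block, and 0 had an unadjusted p under 0.05. Few genes of any kind were called, 0.122% of 11431 at 4 h and 0% of 11584 at 24 h, where 440 had an unadjusted p under 0.05, edgeR called 0 and DESeq2 17. With the replicate block, 1.57% and 1.78% were called (179 and 206 genes), and DESeq2 called 52 at 4 h. At 24 h Acly was at 10270.3, 10368 and 10738 with MMF and Scd1 at 9094, 9894 and 8952, within the range of the LPS libraries or just below it. Their changes were -0.04 (95% interval -0.19 to 0.10) and -0.03 (-0.20 to 0.14). Across the 10 genes the intervals at 24 h ran from -0.26 (Fads2) to 0.29 (Fads1), and at 4 h from -0.44 (Fasn) to 0.37 (Scd2). No interaction of MMF with time was called for a member or for any gene (0%), by limma or edgeR, with 384 genes at an unadjusted p under 0.05.

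**Figure D3:**
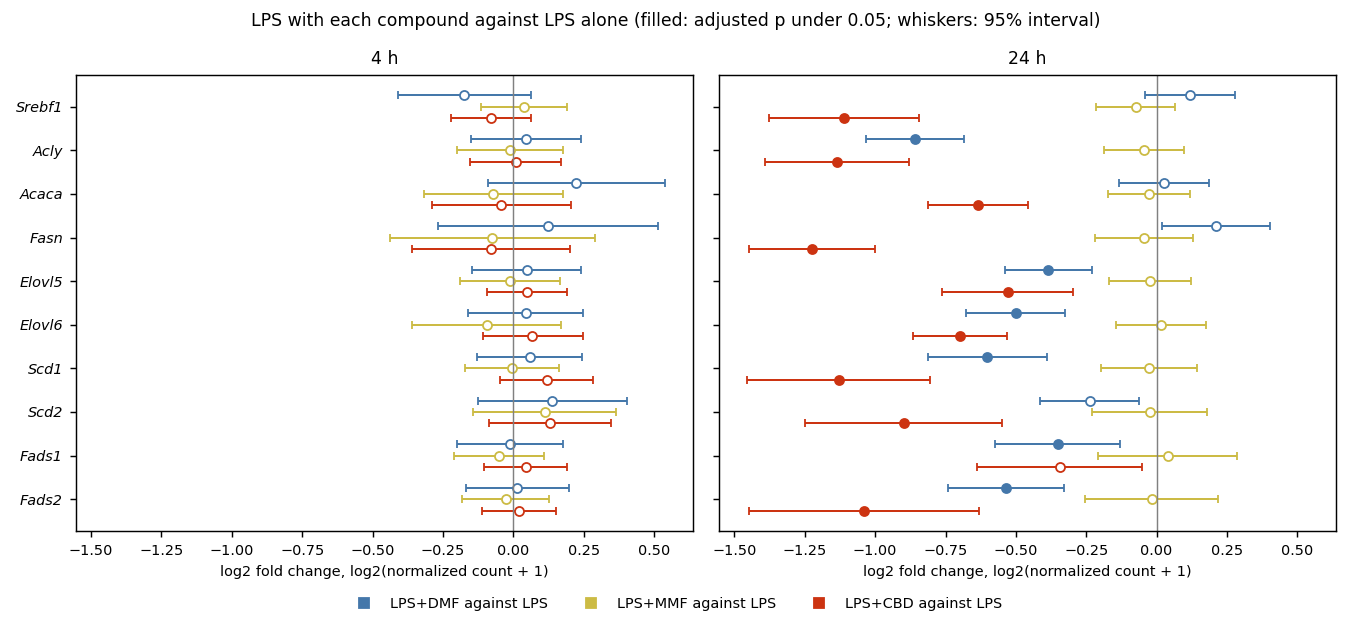
Log2 fold change of LPS with each compound over LPS alone (horizontal axis, on log2(normalized count + 1)) at 4 h and 24 h; whiskers are 95% intervals and filled points had an adjusted p under 0.05. Members called with DMF (6) or CBD (9) appear at 24 h only, all left of 0, and MMF points stay near 0.

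DMF and MMF differ by 1 methyl ester and were given at matched dose and times, so they were compared directly, as 1 pair of compounds at each time. At 24 h Acly was 1.76-fold lower with DMF than with MMF (-0.82 ± 0.07, adjusted p = 0.000229). Scd1 (-0.57 ± 0.09, adjusted p = 0.00252), Fads2 (-0.52 ± 0.08, 0.00341) and Elovl6 (-0.52 ± 0.08, 0.00279) were lower too, as were Fads1 and Elovl5 by 1.31-fold and 1.29-fold. Fasn went the other way and was higher with DMF, at 0.26 (adjusted p = 0.0409). That call was lost without any 1 of the 6 libraries (DMF replicate 1, 2 or 3 or MMF replicate 1, 2 or 3), when the change was 0.18 to 0.29 and adjusted p reached 0.13. Srebf1 (0.19, 95% interval 0.05 to 0.34) and Scd2 (-0.21, -0.38 to -0.05) missed the threshold and passed with the replicate block (adjusted p = 0.00602 and 0.0102). Scd2 passed with DESeq2 as well (0.0364) and only just with edgeR (adjusted p under the threshold, 0.05 when rounded). Acaca was at 0.05 (-0.09 to 0.20). The 7 called members compare with 21.5% of 11665 genes tested. At 4 h, 0 of 10 were called by limma, edgeR or DESeq2 (1 had an unadjusted p under 0.05), where 8.34% of 11377 genes were, and the widest interval was that of Fasn, -0.25 to 0.65. The values with DMF and with MMF share no libraries, but both were also read against the same LPS libraries above.

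CBD lowered nearly the whole set at 24 h. Fasn fell from 15752, 14031 and 14509.7 normalized counts with LPS to 6728, 6711 and 5526 with LPS and CBD. It was 2.33-fold lower (-1.22 ± 0.10, adjusted p = 2.14e-05). Acly stood at 5554, 5238 and 4024 against 10692, 10912 and 10732, and Srebf1 at 2122, 2018 and 1511 against 4139.7, 3932 and 4035. The groups did not overlap for either gene. They were 2.196-fold and 2.16-fold lower (adjusted p = 6.22e-05 and 8.55e-05). Acaca, the step between Acly and Fasn, changed less, by -0.64 ± 0.08 (adjusted p = 0.000201).

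Among the desaturases, Scd1 was at 4922, 4947 and 3311 with CBD and 8794, 10239.8 and 9460.2 without, and Scd2 at 26219.7, 28369.5 and 18271 and 42044, 47825 and 44261. They changed by -1.13 ± 0.14 and -0.90 ± 0.16 (adjusted p = 0.000238 and 0.00132), with every CBD library below every LPS library. Fads2 fell from 6666, 8586 and 7844 to 4165, 4613 and 2663 (-1.04 ± 0.18, adjusted p = 0.00137). Fads1, its neighbour in the same pathway and on the same chromosome, was at 6732, 7283 and 5525 with CBD and 7007, 9606 and 8308 with LPS, and the groups overlapped. Its change of -0.34 ± 0.13 missed the threshold (95% interval -0.64 to -0.05, adjusted p = 0.0524) and passed with DESeq2 (0.0263) and the replicate block (0.00841), without LPS replicate 1 (0.0214) and without CBD replicate 2 (0.0241). The elongases fell as well, Elovl6 by 1.62-fold and Elovl5 by 1.44-fold (adjusted p = 8.75e-05 and 0.00259).

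In all, 9 of 10 members were called lower with CBD at 24 h and 0 higher, where 24.8% of 11671 genes tested were called lower. The median change of the 10 was -0.97, beside -0.002 over all genes tested. CBD replicate 3 was the lowest of its group for all members but Elovl6. Without it, the 9 calls held, with changes between -1.13 for Fasn and -0.41 for Elovl5, and Srebf1 at -0.96. The lower mitochondrial share of the 3 CBD libraries given above moved with this result. So did 2 sums of markers of other cells: Mbp, Mog and Mag of oligodendrocytes, with Mog near 0, at 669 to 849 with CBD beside 1078 to 1394 with LPS, and the 4 fibroblast markers, at 13.9 to 16.2 beside 5.4 to 7.7. The fibroblast markers lay near the floor. In any library Dcn reached at most 11.6 normalized counts, Col1a1 8.1, Pdgfra 1.2 and Col1a2 1.1. The sums of the neuron and astrocyte markers overlapped between LPS with and without CBD. The part of these in the result was not tested. At 4 h, 0 of 10 members were called by limma, edgeR or DESeq2, 0 had an unadjusted p under 0.05 and 0.00875% of 11424 genes tested (1 gene) was called. The intervals there ran from -0.36 (Fasn) to 0.35 (Scd2). The interaction of CBD with time was called, in the lower direction, for all members but Fads1, against 16.5% of 11959 genes.

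At 24 h the ratio of Acly to Fasn was lowest in the DMF libraries. Per kilobase of exon, the level of Acly divided by that of Fasn in the same library was 0.588 ± 0.040 with LPS, 0.588 ± 0.038 with MMF and 0.280 ± 0.014 with DMF. With CBD it was 0.625 ± 0.039, where both genes had fallen. It was 0.397 ± 0.013 in DMSO and 0.456 ± 0.035 in EtOH. The 3 DMF libraries, at 0.268 to 0.295, lay below every other library of 24 h, the next being a DMSO library at 0.384. At 4 h the 6 group means lay between 0.324 and 0.360, and their libraries overlapped. Such a ratio shows unequal change of the 2 genes and is given with no test. It pairs the members with the lowest and the highest estimate under DMF at 24 h in these same libraries. The place of the DMF libraries follows from that choice and is no separate result. DMF and CBD were given at different doses, so their values stand side by side only.

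**Figure D4:**
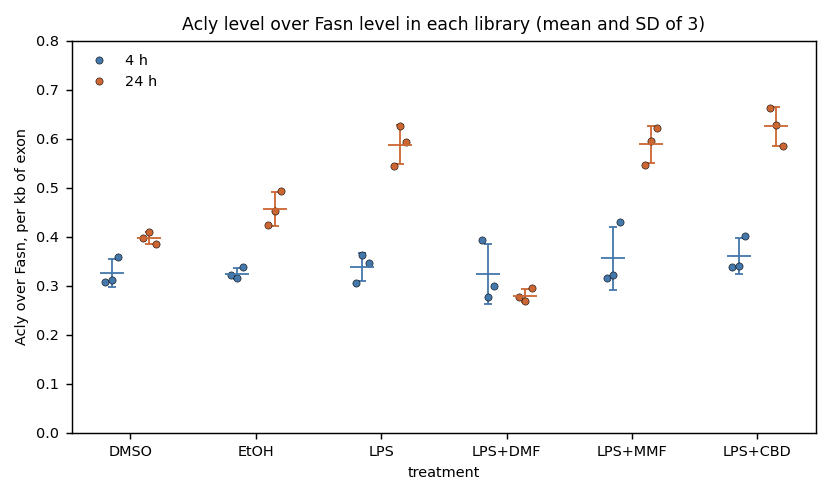
Level of Acly divided by that of Fasn, both per kilobase of exon (vertical axis, from 0), in each library of the 6 treatments at 4 h and 24 h; bars and whiskers are the mean and SD of 3. At 24 h the DMF libraries sit at 0.268 to 0.295 and the LPS libraries at 0.545 to 0.625.

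From 4 h to 24 h, these genes moved in opposite directions within the set, also in cells given vehicle alone. In DMSO cells Scd1 rose from 6456, 7234 and 6179 at 4 h to 10274, 10616 and 10776 at 24 h, and in EtOH cells from 6347, 7351 and 6253 to 10319.9, 10819 and 11449.5. The groups of the 2 times did not overlap. The rise was 1.57-fold and 1.61-fold (adjusted p = 6.28e-05 and 4.33e-05). Scd2 and Fads1 rose in both vehicles as well, by 0.31 and 0.33 in DMSO. Elovl6 fell in both, by 1.22-fold and 1.497-fold (adjusted p = 0.0111 and 0.000614). Fasn, Acaca and Elovl5 fell in EtOH, at -0.39, -0.23 and -0.16; in DMSO they were at -0.24, -0.08 and -0.12 and missed the threshold, although Fasn passed with edgeR (0.0408), DESeq2 (0.019), the replicate block (0.0179) and without replicate 6 of 4 h (0.00785). In DMSO, Elovl6 was lost without replicate 5 of 24 h (adjusted p = 0.0517) and Scd2 without it or replicate 6 of 4 h (up to 0.0688). In EtOH, Fads1 was lost without replicate 5 of 24 h or 6 of 4 h (up to 0.0646), Acaca without replicate 5 or 6 of 24 h or 4 or 5 of 4 h (up to 0.09), and Elovl5 without any library but replicate 5 of 4 h (up to 0.0992) and with DESeq2 (0.0555). Members called numbered 4 in DMSO and 7 in EtOH, where 51.6% of 11482 and 58.6% of 11775 genes were called in either direction.

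With LPS, Scd1 rose 1.80-fold from 4 h to 24 h, Scd2 1.45-fold and Fads1 1.399-fold, and Fasn fell by 1.35-fold. Srebf1 and Acly, not called in either vehicle, rose by 0.30 and 0.37 (adjusted p = 0.00799 and 0.00384). Against DMSO, that difference in time course passed the interaction test for both genes, where 4.98% of 11847 genes had a higher interaction called. Against EtOH it passed for neither, and Elovl5 was the 1 member called (4.69% of 12002 genes called higher). Each of these 3 interaction calls was lost in 10 of the 12 omissions of a single library, with adjusted p up to 0.109 for Acly, 0.115 for Srebf1 and 0.0857 for Elovl5. With MMF, Scd1 rose 1.78-fold and Fasn fell 1.31-fold, the latter lost without replicate 2 or 3 of 24 h or 1 or 2 of 4 h (adjusted p up to 0.13). Members called numbered 6 with LPS and 7 with MMF, where 48.9% of 11510 and 49.5% of 11545 genes were called.

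With DMF, no desaturase passed as higher at 24 h: Scd1 changed by 0.19 (95% interval -0.03 to 0.41), and Fads2 fell 1.35-fold (adjusted p = 0.00135). Srebf1 rose 1.501-fold while Acly fell 1.45-fold and Elovl6 1.71-fold. With CBD, 9 of 10 members were lower at 24 h than at 4 h. Fasn dropped from 19645, 20982 and 15644 to 6728, 6711 and 5526, 2.98-fold (adjusted p = 3.92e-06), the largest time change of any member in any treatment. Scd1, which rose in the vehicles, was 1.32-fold lower (log2 fold change -0.40, adjusted p = 0.0322). That call was lost without CBD replicate 3 of 24 h, when the change was -0.21 (adjusted p = 0.052), and without CBD replicate 1, 2 or 3 of 4 h (0.0775, 0.0839 and 0.0512). Genes called lower made up 31.6% of 11667 with CBD. With DMF, 5 members were called, where 58.8% of 11602 genes were called in either direction.

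**Figure D5:**
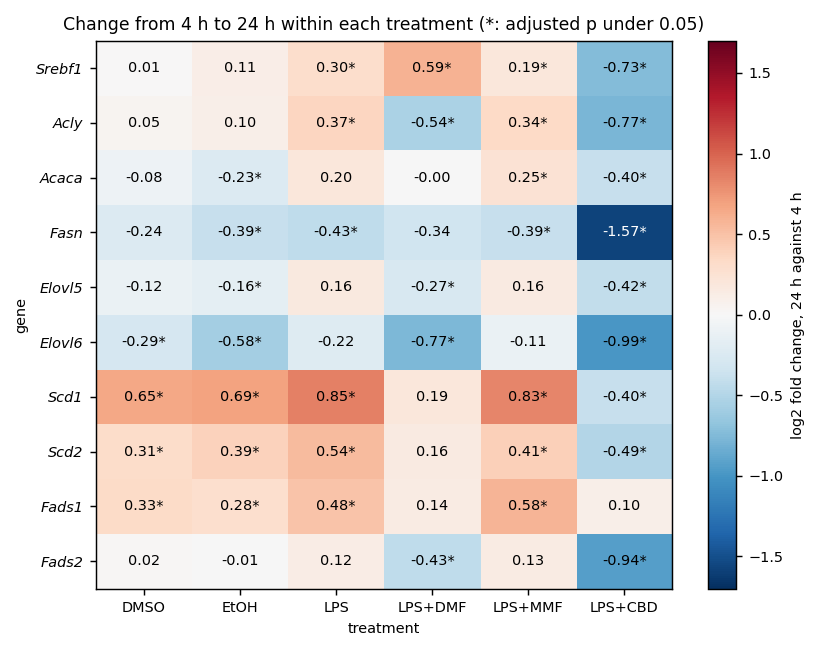
Log2 fold change from 4 h to 24 h within each treatment (columns) for the 10 genes (rows), as colour and as printed value; an asterisk marks an adjusted p under 0.05. Scd1 is positive in the vehicles, LPS and LPS with MMF, small with DMF and negative with CBD.

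The treated cells were also set against the vehicle of each drug. LPS with DMF at 24 h had 7 members lower than DMSO, led by Scd1 (-0.74 ± 0.08) and Elovl6 (-0.59 ± 0.07), with 20.3% of 11649 genes called lower. LPS with CBD at 24 h had all 10 lower than EtOH, from -0.36 ± 0.10 for Elovl5 to -1.35 ± 0.10 for Fasn, with 25% of 11858 genes called lower. LPS with MMF at 24 h differed from DMSO in 4 members, Acly higher (0.25) and Srebf1, Fasn and Scd2 lower (-0.20, -0.31 and -0.28), where 22.4% of 11580 genes were called. At 4 h, Srebf1, Scd1 and Scd2 were lower than in DMSO with DMF and with MMF, where 12.1% of 11449 and 3.09% of 11440 genes were called lower. With CBD at 4 h, Srebf1 (-0.38) and Elovl6 (-0.28) were lower than in EtOH (6.05% of 11478 genes called lower). Between the vehicles, 0 of 10 members were called by limma, edgeR or DESeq2 at 4 h (0% of 11458 genes by limma, with 1051 at an unadjusted p under 0.05, 0 called by edgeR and 80 by DESeq2) and 0 at 24 h (0.00854% of 11715), with 1 and 0 members at an unadjusted p under 0.05. With the replicate block, Scd2 and Elovl6 passed at 4 h (adjusted p = 0.0109 and 0.0132), where 7.65% of the genes were called (876). Among the calls of this paragraph, Scd1 and Scd2 at 4 h, Srebf1 and Scd2 with MMF at 24 h and Elovl6 with CBD at 4 h were each lost in at least 4 omissions of a single library (adjusted p up to 0.154). Elovl5 and Fads1 with CBD at 24 h were lost without EtOH replicate 5 (0.0594 and 0.0578).

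Genes around this set were read from fixed lists. Over all genes tested, 11.9% were called higher and 13.2% lower with DMF at 24 h, and 23.9% higher and 24.8% lower with CBD, and the counts of list genes stand beside these shares. The median over all genes was -0.007 with DMF and -0.002 with CBD. Of 22 other enzymes of fatty acid synthesis, elongation and desaturation, 19 were tested in the DMF and in the CBD comparison at 24 h, and 6 were called lower in each, with 1 higher in DMF and 2 in CBD. Acss2, which makes acetyl-CoA from acetate, was 374 ± 34.3 against 912 ± 269 normalized counts with DMF against LPS (-1.25 ± 0.17, adjusted p = 0.000948), and -1.27 ± 0.29 with CBD (adjusted p = 0.00578). Hacd1, a dehydratase of chain elongation, changed by -1.005 ± 0.13 with DMF, and Scd3, a low-expressed paralog of Scd1, by -1.12 ± 0.20 with CBD. At 4 h of DMF, when no member was called, 3 of 18 were higher (4.55% of all genes), led by Cyb5a, which passes electrons to desaturases (1.35 ± 0.13), and Elovl3 (1.19 ± 0.26). List medians at 24 h were -0.18 with DMF and -0.07 with CBD. With LPS alone at 24 h, 5 of 19 were higher and 1 lower against DMSO, beside 1404 and 1227 of 11574 genes tested. Against EtOH, 6 of 18 were higher and 1 lower, beside 1268 and 1144 of 11775. The list medians with LPS were 0.21 against DMSO and 0.19 against EtOH.

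Of 16 genes in the control of the pathway by SREBP and LXR, 13 were tested in each comparison. With DMF at 24 h, Insig1, which holds SREBP in the endoplasmic reticulum and is itself an SREBP target, was 1659 ± 99 against 4473 ± 486 normalized counts (-1.43 ± 0.09, adjusted p = 6.51e-06). Srebf2, the sterol-directed relative of Srebf1, changed by -0.83 ± 0.07 with DMF (adjusted p = 6.38e-05), whereas Srebf1 itself did not pass. With CBD, Srebf2 was at -0.81 ± 0.11; it was named there after its value was seen. The genes with the largest changes on this list with CBD were Nr1h3, which encodes LXR alpha (0.93 ± 0.19), and its partner Rxra (0.81 ± 0.13), both higher. In all, 2 were higher and 2 lower with DMF, and 4 higher and 2 lower with CBD; medians were 0.02 and 0.10.

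Of 19 genes of acyl-CoA activation and glycerolipid synthesis, 16 were tested. Lpin1, a phosphatidate phosphatase, was lower with CBD at 24 h (-1.15 ± 0.12) and with DMF (-0.68 ± 0.07), while Gpat3, which starts glycerolipid synthesis, was higher with both (0.73 ± 0.12 and 1.21 ± 0.13). LPS alone at 24 h had Gpat3 lower than either vehicle (-0.76 ± 0.11 against DMSO and -0.75 ± 0.13 against EtOH). Its level at 24 h was 320 ± 41 normalized counts with LPS, 545 ± 40 in DMSO and 542 ± 67 in EtOH. With LPS and CBD it was 529 ± 47, near the vehicles, and with LPS and DMF 744 ± 123. With DMF at 4 h Gpat3 was 749 ± 299 against 125 ± 73.5 normalized counts (2.66 ± 0.39, adjusted p = 0.0029). Acsl4, which activates arachidonate, was higher after 4 h of LPS against both vehicles (0.71 ± 0.07 and 0.52 ± 0.09). Counts at 24 h were 2 higher and 3 lower with DMF and 4 higher and 5 lower with CBD, with medians of -0.09 and -0.09. Of 17 genes of fatty acid oxidation, 15 were tested at 24 h with DMF, 4 lower and 0 higher, and 15 with CBD, 2 lower and 2 higher; medians were -0.13 and -0.08. Cpt1a, the gate of fatty acids into mitochondria, was lower with LPS at 4 h (-0.88 ± 0.08 against DMSO and -0.83 ± 0.09 against EtOH). So it was with LPS at 24 h (-0.74 ± 0.09 and -0.50 ± 0.09). At 24 h Cpt1a was lower again than with LPS alone when DMF (-0.48 ± 0.09) or CBD (-0.52 ± 0.10) was added. The largest change on this list with CBD at 24 h was that of Slc25a20, which was higher (0.83 ± 0.13). With DMF at 4 h, 1 of 14 tested was called, Ppard, which was higher (1.31 ± 0.25), where 4.55% of all genes were. No gene of the 4 lists was called with MMF against LPS at 4 h or 24 h, where 0.122% and 0% of all genes tested were. The same held for CBD against LPS at 4 h, where 0.00875% of all genes tested were called.

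The members did not share 1 pattern over the 12 groups. On group means of log2 levels, Pearson's r was 0.94 between Scd1 and Scd2 and 0.93 between Acly and Elovl5, but 0.18 between Fasn and Scd1 and -0.17 between Fasn and Fads1. Apart from Fads1 with Fasn and with Elovl6 (-0.07), r was positive for every pair, such as Elovl5 with Fads2 (0.93) and Srebf1 with Scd2 (0.88). These are descriptions over 12 groups that share scaling and culture times. Among 10086 other genes with a mean of at least 50, those most like Fasn in this sense were Asxl1, Agap3 and mt-Nd5 (r = 0.974, 0.969 and 0.963). Those most like Scd1 were Wwc2, Col25a1 and Dlg4 (0.971, 0.968 and 0.967), and those most like Srebf1 were Zgpat, St3gal5 and Relt (0.978, 0.954 and 0.952). The closest gene was Stard4 for Acly (0.983), E2f8 for Elovl6 (0.982) and Ccnb2 for Fads2 (0.975). It was Trib2 for Scd2 (0.968), Wipi1 for Fads1 (0.968), Man2a1 for Elovl5 (0.954) and Cebpa for Acaca (0.916).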

How the data were processed

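Poly(A) RNA from 36 BV-2 cultures was sequenced as paired ends. Per the submitters' processing notes, reads were handled with cutadapt 4.4 and Trimmomatic 0.39, aligned with HISAT2 2.2.1 to GRCm39, counted per Ensembl gene with HTSeq 2.0.3 and normalized with DESeq2 1.40.2. The authors deposited a table for each pair of groups, and its signal values are counts divided by DESeq2 size factors, set within the 6 libraries of that table; columns of the authors' own fold changes, p-values and test statistics stand beside them and were not used. Of 30 tables, 26 were used, and 4 that set CBD beside DMF or MMF were left out because the doses differ.

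The values were tested as deposited with limma 3.58.1 in R 4.3.3 (linear model with an intensity trend) on log2(value + 1), within 1 table, for genes reaching 10 in at least 3 libraries, with Benjamini-Hochberg adjustment and a threshold of 0.05. Whole reads were recovered from the steps of the values in 136 of 156 columns: 100% of 2363319 values lay within 0.01 of a whole read, and 0 of 1694717 values compared between tables differed. The recovered reads gave the depth (14110424 to 26676607 reads per library, median 16230584), levels scaled by median-of-ratios factors over 36 libraries, the interactions over 12 libraries, and the count tests of edgeR 4.0.16 and DESeq2 1.42.0. The largest difference between a member's fold change in its own table and on the joint scale was 0.024 (log2). Tests were checked on simulated data.

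Groups came from the sample titles. LPS groups carry replicate numbers 1 to 3 and vehicle groups 4 to 6, so LPS and vehicle cannot be paired. The labels do not say whether these cultures came from the same experiments. If they did not, a difference between experiments cannot be told apart from that between LPS, with or without a drug, and vehicle. Elsewhere same-numbered libraries deviated together (every correlation of their deviations over 0.1) in DMF, MMF, CBD and DMF against MMF at 24 h, in DMF and CBD at 4 h, between vehicles, and over time in LPS and MMF; a fit with the number as a block was made as an alternative. Other alternatives were a pseudocount of 5, no filter, and leaving out each library; joint size factors were added after the data were seen. The members and lists were chosen with earlier results of these data known. The text names every member, the 3 genes most like Fasn, Scd1 and Srebf1 and the gene most like each other member. From a list it names only called genes, up to 2 with the largest change among those averaging 50 or more in either group. How multi-mapped reads were treated is not given in the sources used here. Exon lengths are the union of GENCODE vM39 exons; promoters are from RefSeq. The values of 1 cell type marker are not reported here.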

Additional observations from a re-analysis of the deposited data

Results flagged for a closer look

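For 17 combinations of a gene and a treatment, the effect at 24 h differed from that at 4 h by an interaction term in limma (adjusted p under 0.05 over all genes; values are the log2 fold change at 24 h minus that at 4 h). Groups of 3 libraries were not screened by a rule for single deviating samples, but each library was left out in turn, as described below.

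With CBD against LPS the difference was -1.24 for Scd1, -1.14 for Fasn, -1.14 for Acly, -1.05 for Fads2 and -1.02 for Srebf1. It was smaller for the others, at -1.02 for Scd2, -0.76 for Elovl6, -0.58 for Acaca and -0.57 for Elovl5; adjusted p ranged from 7.01e-05 for Acly to 0.00549 for Acaca. With DMF against LPS it was -0.91 for Acly, -0.67 for Scd1, -0.56 for Fads2, -0.55 for Elovl6 and -0.44 for Elovl5, with adjusted p from 0.000181 for Acly to 0.0161 for Elovl5. With LPS against DMSO it was 0.32 for Acly and 0.29 for Srebf1 (adjusted p = 0.0406 and 0.0463), and with LPS against EtOH 0.32 for Elovl5 (adjusted p = 0.0358).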

How the results depend on the processing

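Of the 32 member calls in comparisons of LPS with a vehicle, of a drug with LPS and of DMF with MMF, none changed sign in 374 recomputations; 326 kept the call and 48 lost it. All 9 CBD calls and 5 of the 6 DMF calls at 24 h held under every alternative, as did 6 of the 7 for DMF against MMF. Counts of members called moved by more than 1.5 times in 67 of 367 recomputations. With no filter, the count was 0 for LPS against EtOH at 24 h (main 1), 1 for DMF against DMSO at 4 h (main 3) and 2 for MMF against DMSO at 24 h (main 4). For CBD against EtOH at 4 h (main 2), DESeq2 gave 4 and joint size factors 5. The replicate block gave 2 for DMSO against EtOH at 4 h (main 0); it moved no other count by over 1.5 times, and it gave 8 for DMF and 10 for CBD against LPS at 24 h. In the comparisons where same-numbered libraries did not all deviate together, the block gave 0 for MMF against LPS and for DMF against MMF at 4 h, and 5, 7, 5 and 9 over time in DMSO, EtOH, DMF and CBD (main 4, 7, 5 and 9). edgeR gave 1 for the interaction of LPS against DMSO (main 2). The causes were not tested.

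Leaving out 1 library at a time gave 1 to 3 members for LPS against DMSO at 4 h and 1 to 3 at 24 h, 0 to 3 for LPS against EtOH at 4 h and 0 at 24 h. It gave 0 to 1 for DMF against MMF at 4 h, 1 to 3 for DMF against DMSO and for MMF against DMSO at 4 h, 2 to 5 for MMF against DMSO at 24 h and 1 to 4 for CBD against EtOH at 4 h. Over time it gave 2 to 4 in DMSO, 4 to 6 in EtOH and 4 to 6 in MMF, and 0 to 2 for the interactions of LPS against DMSO and against EtOH. Of the 10 calls for LPS against a vehicle, 8 were lost without at least 1 of the 6 libraries.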
